A study of Mus musculus with 72 samples.

Results

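1014-Grpr is a line of mouse melanoma cells that carries an introduced receptor for gastrin-releasing peptide (GRP). The RNA of these cells was compared by RNA sequencing after 4 h of 10 nM GRP and after 4 h of mock treatment. The comparison used 6 of the 72 libraries of the series, which were the 3 that the sample labels give as GRP and the 3 that they give as mock for this line. Changes in both directions were described over all genes with enough counts to be tested. The other 66 libraries belong to 5 further lines and to the remaining treatments, and only those of 1014-Grpr, 1014-Ctrl and 1057 were used here.

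The cells of 1014-Grpr are female and come from a melanoma driven by NRASQ61K under the tyrosinase promoter (Tyr::NRASQ61K/°). They were transfected with a plasmid that expresses murine Grpr and tGFP from the CMV promoter (CMV::Grpr/tGFP), so the receptor is not under the control of its own promoter. 1014-Ctrl is the same parental line with tGFP alone (CMV::tGFP), and the labels describe it as lacking the receptor. 1057 is a female line with the same NRAS transgene that lacks Cdkn2a, carries a Cdh1 deletion made by Tyr::CreA, and has a Grpr of its own. All groups were starved for 18 h in 0.5% foetal calf serum and treated for 4 h in the same medium, the mock was 0.1% DMSO, and a further pair of arms received 1 µM of the GRPR antagonist RC, alone or with GRP. Each line is a single cell line. The study's methods state that culture experiments were done at least in biological triplicate, while the labels give only a replicate number, and the p-values measure the spread between these libraries.

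GRP is a neuropeptide of the bombesin family, and its receptor GRPR is coupled to G proteins of the Gq class. On binding, Gq activates phospholipase C, which releases calcium from internal stores and activates protein kinase C, and related G proteins activate the small GTPase RhoA. These routes lead to the MAP kinase cascade, to serum response factor (SRF) on actin-regulated genes, and to the co-activators YAP and TAZ. Many of the genes that answer within hours encode transcription factors, secreted ligands and feedback inhibitors.

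The 6 libraries held between 21501950 and 46862053 counted reads, and the 12 libraries of the line between 19512882 and 46862053. Of 12 markers of the melanocyte lineage, 11 passed the filter on low counts, and their summed level was 35600 to 41400 CPM (counts scaled to a common library size) in mock and 29700 to 36200 in GRP libraries. Dct and Pmel were the highest of them, and Ednrb did not pass the filter. Markers of fibroblasts summed to at most 4.96 CPM, and those of endothelium, immune cells and keratinocytes to at most 2.72 CPM in any of the 6 libraries. Of the 4 markers of Schwann cells 3 were expressed, with sums of 785 to 884 CPM in mock and 620 to 640 in GRP libraries, and the part of this difference in the results was not tested. The library labelled 1014-Ctrl mock replicate 2 goes against its label, since it held Grpr at 49.4 CPM and the Y-linked Ddx3y at 66 CPM, whereas Ddx3y was at 0 in the other 23 libraries of the 2 lines. Counts and differences against 1014-Ctrl are therefore given with and without it.

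Grpr itself was measured at 129, 110 and 143 CPM in the mock libraries and at 409, 591 and 638 CPM in the GRP libraries of 1014-Grpr (CPM here and below are normalized by TMM, which scales libraries to each other). Every GRP library lay above every mock library. The difference was 2.10 ± 0.182 on the log2 scale (SE, n = 3 against 3, adjusted p = 7.52e-06). Counts per gene do not separate transcripts of the plasmid from those of the cell's own Grpr (chromosome X, 163513904 to 163549677, GRCm38). In 1014-Ctrl, Grpr was at 0 to 0.0342 CPM in all libraries but the one that goes against its label.

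After 4 h of GRP the response was wide and mostly upward. Of 13730 genes tested, 434 were called higher, which is 3.16% of the genes tested, and 117 were called lower, which is 0.852%. To be called, a gene had to change by more than 1 on the log2 scale with an adjusted p below 0.05. The median log2 fold change was 1.54 among genes called higher and -1.22 among genes called lower, against -0.02 over all genes tested. A log2 fold change above 2 was reached by 131 of the genes called higher and one above 4 by 31, while only 3 genes called lower went below -2. All 434 genes called higher had GRP libraries above all mock libraries, and 108 of the 117 called lower had them below. Over all genes tested 2965 lay above and 2652 below in this way, and since the calls came from the same libraries nothing more is read from these counts.

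The calls depend on how libraries are scaled. The genes called higher held 2.01 to 2.09% of the counts of a mock library and 4.45 to 5.33% of those of a GRP library. They were chosen for being higher in these GRP libraries, so the direction of this difference was fixed by the choice. With counts scaled by the library total alone, the median of all genes moved by -0.118 (log2) and the calls were 355 higher and 199 lower, so that 64.1% of the calls were higher instead of 78.8%. By adjusted p alone, 3986 genes (29% of those tested) passed, 2244 higher and 1742 lower, and with the replicate number as a block 7366 passed. Values are from the fit without this block unless it is named, so a gene short of the p threshold may pass with it. The block kept 431 of the genes called higher and 113 of those called lower. Leaving out GRP replicate 3 lowered the count of genes called lower to 73.

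**Figure D1:**
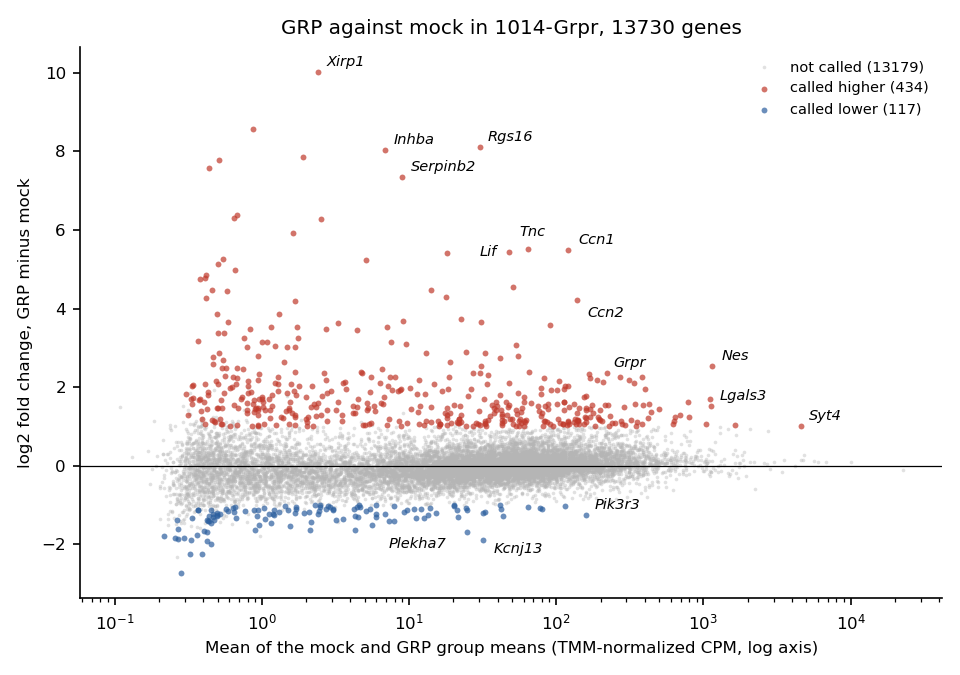
Log2 fold change of GRP against mock (vertical) against the mean level in CPM (horizontal, log axis) for the 13730 genes tested in 1014-Grpr, with genes called higher in red, called lower in blue and others in grey. The red points reach much farther from 0 than the blue points, and the fitted value of Xirp1, which had no count in any mock library, is no bound on its change.

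The largest increases are described first for called genes with a mean of at least 5 CPM in GRP libraries. Rgs16, a GTPase activator that shortens the signalling of Gq and Gi proteins, was at 0.138, 0.369 and 0.0895 CPM in mock and at 30.8, 102 and 47.4 CPM in GRP libraries. Its log2 fold change was 8.11 ± 0.731 (SE, adjusted p = 9.78e-06). Every GRP library of Rgs16 lay above every mock library, and replicate 2 was the highest.

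Serpinb2, which encodes plasminogen activator inhibitor 2, was at 0.0346, 0.246 and 0 CPM in mock and at 8.73, 24.2 and 20.8 CPM in GRP libraries, with a log2 fold change of 7.34 ± 0.673 (SE, adjusted p = 1.12e-05). Serpinb2 was thus near absence in mock cells and present in every GRP library. Plaur, the receptor of the urokinase that it inhibits, was at 1.66, 1.79 and 1.7 CPM in mock and at 23.9, 42.3 and 35.2 CPM in GRP libraries, with a log2 fold change of 4.30 ± 0.2 (SE, adjusted p = 2.12e-07).

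Tnc, which encodes the matrix glycoprotein tenascin C, was at 2.49, 3.76 and 1.75 CPM in mock and at 54.5, 163 and 159 CPM in GRP libraries. The log2 fold change of Tnc was 5.52 ± 0.481 (SE, adjusted p = 7.64e-06), and GRP replicate 1 was the lowest of its group. Nr4a3, an orphan nuclear receptor of the immediate early class, was at 4.87, 5.02 and 2.24 CPM in mock and at 88.8, 143 and 59.3 CPM in GRP libraries, with a log2 fold change of 4.55 ± 0.39 (SE, adjusted p = 7.09e-06). Chst11, a chondroitin sulphotransferase, rose by 3.73 ± 0.267 and Bcl6b, a transcriptional repressor, by 6.29 ± 0.53 on the same scale (adjusted p = 2.12e-06 and 6.49e-06). Bcl6b had at most 4 counts in a mock library.

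**Figure D2:**
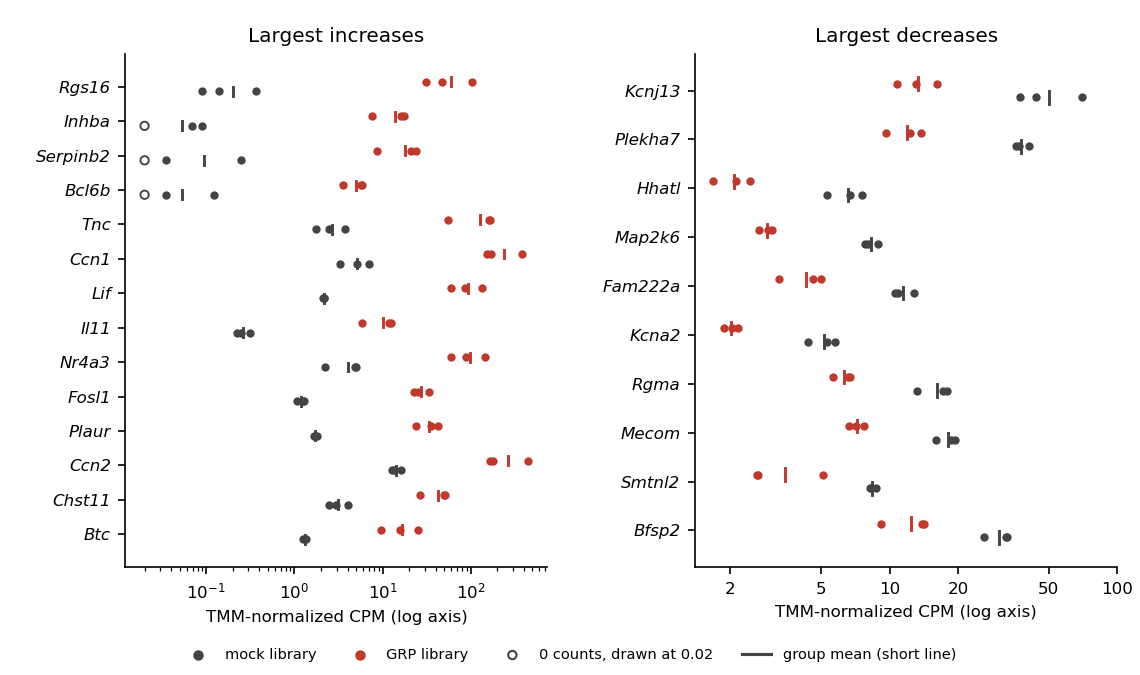
Level of each gene in CPM (log axis) in the 3 mock (dark) and 3 GRP (red) libraries of 1014-Grpr for 14 of the 15 largest increases (left) and the 10 largest decreases (right) with a mean of at least 5 CPM in the higher group; the short line is the group mean and open circles at the left edge are libraries with 0 counts. In every gene the GRP libraries lie wholly above (left) or wholly below (right) the mock libraries, which the rule for these genes required.

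Levels can be compared between genes only per length, for which the deposited TPM was used. The 5 genes of highest TPM among those called higher were Syt4, Lgals3, Tnfrsf12a, Actg1 and Mcam, so the response also reached abundant transcripts. Lgals3, which encodes galectin 3, went from a mean of 1130 TPM in mock to 3010 TPM in GRP libraries (n = 3 each). Its log2 fold change was 1.52 ± 0.125 (SE, adjusted p = 5.45e-06). Tnfrsf12a, the receptor of the cytokine TWEAK, went from 266 to 1280 TPM, Actg1, a cytoplasmic actin, from 545 to 1230 TPM, and Mcam, the melanoma cell adhesion molecule, from 414 to 1190 TPM. Syt4, a synaptotagmin of vesicle traffic, went from 2810 to 5220 TPM and sat at the fold threshold, with a log2 fold change of 1.00 ± 0.083 (SE, adjusted p = 5.96e-06). It was called in only 4 of 12 alternatives. With the replicate block the fold change came to lie just under the threshold (adjusted p = 8.49e-13), and with scaling by the library total it was 0.88.

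The promoters of some of these genes hold recognition letters of factors that act downstream of the receptor. Those of others, such as Rgs16, Tnc and Chst11, hold none of the letters searched for. The 300 bases from 250 before to 50 after a start were read from RefSeq's table for GRCm38.p6, which had an entry for 306 of the 434 genes called higher, 77 of the 117 called lower and 9961 of the genes tested. The 250 bases before the start are shown for an inhibitor, a cytokine and a receptor of the largest increases that hold an AP-1 site, for the YAP target Ccn1 with a TEAD site, and for the SRF target Cnn2 with a CArG box. Capitals mark the matched letters on either strand, which in Lif include a kappaB site.
Serpinb2 (chr1:107511173-107511422, + strand): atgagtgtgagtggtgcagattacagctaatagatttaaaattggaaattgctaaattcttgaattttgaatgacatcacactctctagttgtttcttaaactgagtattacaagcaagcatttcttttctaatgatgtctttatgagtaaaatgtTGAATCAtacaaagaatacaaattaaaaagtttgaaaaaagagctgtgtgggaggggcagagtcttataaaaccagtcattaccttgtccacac
Lif (chr11:4257318-4257567, + strand): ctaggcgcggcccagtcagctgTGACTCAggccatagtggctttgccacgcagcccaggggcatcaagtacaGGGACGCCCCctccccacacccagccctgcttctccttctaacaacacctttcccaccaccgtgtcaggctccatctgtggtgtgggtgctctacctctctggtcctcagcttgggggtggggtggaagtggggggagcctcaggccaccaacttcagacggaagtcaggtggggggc
Plaur (chr7:24462233-24462482, + strand): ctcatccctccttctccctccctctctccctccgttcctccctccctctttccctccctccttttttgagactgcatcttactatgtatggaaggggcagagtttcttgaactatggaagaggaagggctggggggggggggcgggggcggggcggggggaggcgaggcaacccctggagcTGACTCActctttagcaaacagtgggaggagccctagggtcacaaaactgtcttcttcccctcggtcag
Ccn1 (chr3:145649986-145650235, - strand): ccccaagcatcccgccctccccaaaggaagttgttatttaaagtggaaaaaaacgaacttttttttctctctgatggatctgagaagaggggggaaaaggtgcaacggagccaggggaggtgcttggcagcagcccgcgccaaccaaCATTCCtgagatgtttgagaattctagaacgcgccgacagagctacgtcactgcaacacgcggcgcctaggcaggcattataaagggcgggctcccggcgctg
Cnn2 (chr10:79988350-79988599, + strand): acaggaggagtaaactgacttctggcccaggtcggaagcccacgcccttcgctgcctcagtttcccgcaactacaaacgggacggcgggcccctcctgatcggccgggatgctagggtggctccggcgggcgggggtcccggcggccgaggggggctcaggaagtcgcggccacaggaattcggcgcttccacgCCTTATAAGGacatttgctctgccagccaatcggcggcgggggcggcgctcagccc

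Both strands were searched for the AP-1 site TGANTCA, the cyclic AMP response element TGACGTCA, the TEAD site GGAATG, the CArG box of SRF and the kappaB site. TGACGTCA does not contain TGANTCA, while matches of different patterns may overlap. Shares are of genes with an entry, and a gene counted if any of its promoters held the match. The AP-1 site was found for 12.7% of genes called higher, 6.49% of those called lower and 5.9% of all genes tested. Of all promoters in the table, each counted singly, 7.81% held it, so this share has another unit than those of genes. Among the 59 genes with a log2 fold change above 3, of which 43 had an entry, 25.6% held the AP-1 site, 27.9% the TEAD site, 25.6% the kappaB site, 2.33% the CArG box and 0% the cyclic AMP response element. The CArG box was found for 5.56% of genes called higher, 2.6% of those called lower and 1.55% of those tested, and in 1.63% of all promoters in the table. In the same order, the kappaB site was found in 17.6%, 16.9% and 12.2%, the TEAD site in 18.6%, 24.7% and 14.4%, and the cyclic AMP response element in 4.58%, 2.6% and 3.66%, against 8.46%, 14.7% and 1.79% of all promoters in the table. These are descriptions of letters in a window, with no test, and a match is not a bound site.

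AP-1 is a dimer of Fos and Jun family proteins, and its genes are among the earliest to answer growth signals. Of 12 members, all tested, 7 were called higher and none lower, with a median log2 fold change of 1.66 against -0.02 over all genes. The 3.16% and 0.852% above are the background for this and the following counts of called genes. For counts of members that passed the p threshold alone, the background is 2244 higher and 1742 lower of the 13730 genes tested. Fosl1, which encodes Fra-1, was at 1.24, 1.29 and 1.07 CPM in mock and at 22.8, 33.7 and 25.1 CPM in GRP libraries, with a log2 fold change of 4.48 ± 0.224 (SE, adjusted p = 2.77e-07). Other annotated exons on the opposite strand cover 57.2% of the exons of Fosl1, and the counting's use of strand is not given in the sources used here. Fosb rose by 3.10 ± 0.309, Atf3 by 3.08 ± 0.216, Fosl2 by 2.15 ± 0.155 and Fos by 1.99 ± 0.223 (log2, SE, adjusted p = 2.08e-05, 2.02e-06, 2.27e-06 and 5e-05). Within the Jun family Junb was called (1.51 ± 0.151, adjusted p = 2.21e-05), Jun passed the p threshold below the fold threshold (0.59 ± 0.07, adjusted p = 7.4e-05), and Jund was at 188 CPM in mock and 206 CPM in GRP libraries (adjusted p = 0.472).

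Among other early transcription factors, 11 of 19 tested (of 21 listed) were called higher and none lower, with a median log2 fold change of 1.01. The zinc finger factors Egr2 and Egr3 rose by 3.53 ± 0.497 and 2.65 ± 0.226 (log2, SE, adjusted p = 0.000268 and 6.85e-06), and Egr1 by 2.03 ± 0.3 (adjusted p = 0.000389). All 3 nuclear receptors of the Nr4a family were called, with Nr4a2 at 2.36 ± 0.156 and Nr4a1 at 1.49 ± 0.128 beside Nr4a3 (adjusted p = 1.33e-06 and 7.09e-06). Srf was called at 1.43 ± 0.106 and Myc at the fold threshold at 1.00 ± 0.113 (adjusted p = 2.45e-06 and 5.15e-05). Klf4, at 0.60 ± 0.163, passed the p threshold alone (adjusted p = 0.0154).

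Secreted ligands had the highest median of the 17 lists, 3.01, and 18 of 26 tested were called higher and none lower, while 17 of the 43 listed did not pass the filter on low counts. Members that passed it through their GRP libraries alone had to differ, so the counts and medians of this and the other lists are descriptions. Lif, a cytokine of the interleukin 6 family, was at 2.18, 2.09 and 2.15 CPM in mock and at 60.1, 134 and 85.3 CPM in GRP libraries. Its log2 fold change was 5.44 ± 0.291 (SE, adjusted p = 4.2e-07), and its promoter is among those printed. Il11, of the same family, was at 0.311, 0.246 and 0.224 CPM in mock and at 5.79, 12.3 and 11.8 CPM in GRP libraries, with a log2 fold change of 5.23 ± 0.353 (SE, adjusted p = 1.52e-06).

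Inhba encodes the subunit of activin A, a ligand of the TGF-beta family. Its mock libraries held at most 2 counts each, 4 in all, against 1405 counts in the GRP libraries, so the pooled ratio was 301 with an exact 95% counting interval of 117 to 1110 (adjusted p = 1.76e-06). Gdnf, a neurotrophic factor, had 1 count in mock and 376 in GRP libraries, a ratio of 322 with an interval of 57.5 to 12800 (adjusted p = 5.65e-05). The intervals cover counting error only. Both are among 20 of the 434 genes called higher that had at most 3 counts, taken as the floor, in each mock library.

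Among ligands of the EGF receptor, Btc rose by 3.68 ± 0.346, Ereg by 3.48 ± 0.457 and Hbegf by 2.88 ± 0.207 (log2, SE, adjusted p = 1.31e-05, 0.000164 and 2.12e-06), whereas Tgfa passed the p threshold downward (-0.75 ± 0.116, adjusted p = 0.000512). The natriuretic peptide gene Nppb went from a mean of 13.9 to 168 CPM (3.59 ± 0.167, adjusted p = 2.12e-07). Bdnf, a neurotrophin, rose by 3.87 ± 0.56 and Stc1, the hormone stanniocalcin 1, by 4.19 ± 0.297 (adjusted p = 0.000326 and 2.02e-06). Pdgfa and Pdgfb, the chains of platelet-derived growth factor, rose by 2.26 ± 0.229 and 3.66 ± 0.61 (adjusted p = 2.43e-05 and 0.000848). Pdgfb stayed low, at a mean of 1.10 CPM in GRP libraries.

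**Figure D3:**
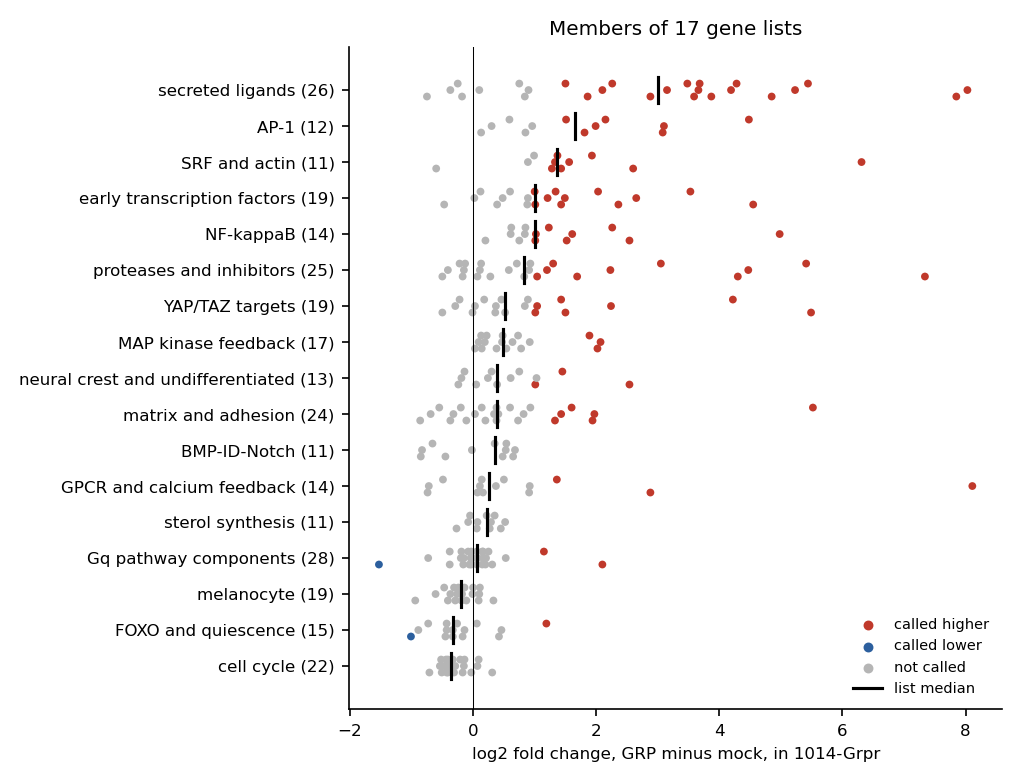
Log2 fold change of GRP against mock in 1014-Grpr (horizontal) for each tested member of 17 gene lists, with the number tested in brackets, members called higher in red, called lower in blue and others in grey, and the list median as a black line. Secreted ligands have the median farthest to the right, 3.01, and the cell cycle list the one farthest to the left, -0.36.

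Proteases and their inhibitors gave 10 called higher of 25 tested and none lower, with a median log2 fold change of 0.83. Beside Serpinb2 and Plaur, the metalloproteinase gene Adamts1 went from a mean of 524 to 1690 CPM (1.69 ± 0.204, adjusted p = 8.79e-05). Mmp10, stromelysin 2, had 3 counts over the mock and 92 over the GRP libraries, a ratio of 26.3 with an interval of 8.72 to 130 (adjusted p = 0.00019). The metalloproteinase inhibitors Timp1 and Timp3 were both called. In the list of matrix and adhesion genes 6 of 24 tested were called higher and none lower, with a median of 0.38. Thbs2, a thrombospondin, rose by 1.94 ± 0.169, Itgb8 by 1.60 ± 0.269 and Itga5, the fibronectin receptor subunit, by 1.43 ± 0.083 (log2, SE, adjusted p = 7.64e-06, 0.000888 and 6e-07). Fn1 went from 1020 to 1940 CPM, below the fold threshold (0.93 ± 0.1, adjusted p = 3.82e-05).

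YAP and TAZ are co-activators of the TEAD factors. Of 19 of their target genes tested, of 23 listed, 7 were called higher and none lower, with a median log2 fold change of 0.52. Over the alternatives 5 to 7 were called higher. The paper scores YAP1 activation by Ccn1 and Ccn2 (CYR61 and CTGF) with Tead4, Lats2 and Crim1. Tead4, Lats2 and Crim1 were not called, at 0.18, 0.37 and 0.03 (log2, adjusted p = 0.362, 0.0277 and 0.781). Ccn1 was at 5.08, 7.08 and 3.27 CPM in mock and at 154, 382 and 170 CPM in GRP libraries, with a log2 fold change of 5.49 ± 0.499 (SE, adjusted p = 1.05e-05). Ccn2 was at 16.2, 13.3 and 12.8 CPM in mock and at 165, 448 and 178 CPM in GRP libraries, with a log2 fold change of 4.22 ± 0.357 (SE, adjusted p = 6.54e-06). In both of these matricellular genes GRP replicate 2 stood above the other GRP libraries. Other annotated exons on the opposite strand cover 23.2% of those of Ccn2. Myof rose by 2.24 ± 0.172 (adjusted p = 3.06e-06), whereas Amotl2 passed the p threshold downward (-0.50 ± 0.065, adjusted p = 0.000159). Yap1 itself was at 177, 172 and 181 CPM in mock and at 178, 169 and 169 CPM in GRP libraries (log2 fold change -0.04 ± 0.053, adjusted p = 0.636).

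SRF with its actin-regulated co-activators drives genes of the contractile apparatus. Of 11 tested members of that list, 8 were called higher and none lower, with a median log2 fold change of 1.37. Cnn2, a calponin, was at 47.8, 42.7 and 35.6 CPM in mock and at 159, 175 and 147 CPM in GRP libraries, with a log2 fold change of 1.93 ± 0.113 (SE, adjusted p = 6e-07). Cnn1 had 1 count in mock and 129 in GRP libraries, a ratio of 111 with an interval of 19.5 to 4400 (adjusted p = 7.45e-05). Tpm1, a tropomyosin, rose by 1.56 ± 0.115 and Vcl, vinculin, by 1.37 ± 0.091 (adjusted p = 2.4e-06 and 1.39e-06), and Actb went from 1930 to 3600 CPM, below the fold threshold (0.89 ± 0.101, adjusted p = 5.15e-05). Of Tagln, which was called at 2.60 ± 0.471 (adjusted p = 0.00145), 67.9% of the exons are covered by annotated exons on the opposite strand.

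NF-kappaB genes gave 8 called higher of 14 tested and none lower, with a median log2 fold change of 1.01. Tnfaip3, an inhibitor of the pathway, rose by 2.26 ± 0.211 and Tnfaip2 by 2.54 ± 0.185, and the subunit genes Relb and Nfkb2 by 1.61 ± 0.089 and 1.52 ± 0.083 (log2, SE, adjusted p = 1.26e-05, 2.27e-06, 5.04e-07 and 4.2e-07). Ptgs2, cyclooxygenase 2, had 3 counts in mock and 125 in GRP libraries, a ratio of 35.7 with an interval of 11.9 to 176 (adjusted p = 0.00081).

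Feedback inhibitors moved unevenly. Of the MAP kinase feedback list 3 of 17 tested were called higher and none lower, with a median of 0.48, and 11 passed the p threshold upward. Spry2, a Sprouty inhibitor of receptor tyrosine kinase signalling, was at 44.5, 44.6 and 53.7 CPM in mock and at 148, 219 and 210 CPM in GRP libraries (2.02 ± 0.172, adjusted p = 7.09e-06). The phosphatase genes Dusp2 and Dusp5 rose by 2.07 ± 0.381 and 1.89 ± 0.152 (adjusted p = 0.00166 and 4.66e-06), while Dusp6 went from 268 to 460 CPM (0.78 ± 0.093, adjusted p = 8.1e-05) and Dusp1 from 12.4 to 13.6 CPM (adjusted p = 0.657). Of the list of GPCR and calcium feedback 3 of 14 tested were called higher and none lower, with a median of 0.26. These were Rgs16, Rgs2 (2.88 ± 0.223, adjusted p = 3.3e-06), which acts on Gq, and the kinase gene Sik1 (1.36 ± 0.256, adjusted p = 0.00195).

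Most components that carry the signal from the receptor were not called, which also holds for most genes tested. Of 28 tested genes of the Gq pathway, 2 were called higher (7.14%), Grpr and Trio, and 1 lower (3.57%), Prkcz. These shares stand against 3.16% and 0.852% of all genes tested. By adjusted p alone 5 were higher and 2 lower. The median log2 fold change was 0.06, and -0.06 when counts were scaled by the library total. Trio, a guanine nucleotide exchange factor that Gq activates, was at 370, 432 and 377 CPM in mock and at 727, 1010 and 872 CPM in GRP libraries (1.15 ± 0.134, adjusted p = 6.69e-05). Prkcz, an atypical protein kinase C, was at 2.66, 2.52 and 1.75 CPM in mock and at 0.775, 0.784 and 0.844 CPM in GRP libraries (-1.53 ± 0.234, adjusted p = 0.000486). Gnaq, the G protein subunit itself, was at 85.6 CPM in mock and 95.1 CPM in GRP libraries (adjusted p = 0.285).

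Of 19 tested members of the melanocyte list none was called in either direction, with a median log2 fold change of -0.19. With 3.16% and 0.852% of all genes called, a list of this size would be expected to hold few calls or none. Nothing is therefore read from this count, and the same holds for the lists below without a call. By adjusted p alone, without the replicate block, 1 was higher and 3 were lower, Rab38, Trpm1 and Rab27a. Mitf, the master regulator of melanocytes, was at a mean of 615 CPM in mock and 503 CPM in GRP libraries (-0.29 ± 0.126, adjusted p = 0.105). Tyr, tyrosinase, went from 1910 to 1540 CPM (adjusted p = 0.0963) and Sox10 from 1100 to 1180 CPM (adjusted p = 0.208). Rab27a, which moves pigment granules, was at 294, 328 and 194 CPM in mock and at 160, 167 and 97.5 CPM in GRP libraries (-0.94 ± 0.265, adjusted p = 0.0184). It was called lower in 4 of 12 alternatives, at -1.06 with scaling by the library total and at -1.04, -1.08 and -1.15 without GRP replicate 1, GRP replicate 2 or mock replicate 3. Trpm1 passed the p threshold likewise (-0.61 ± 0.146, adjusted p = 0.00786). Gpr143 was at -0.41 ± 0.259 (adjusted p = 0.266), and with the replicate block at -0.40 ± 0.043 (adjusted p = 2.45e-07). Kit, a receptor tyrosine kinase, was at -0.47 ± 0.367 with adjusted p = 0.376, and with the replicate block at -0.48 ± 0.058 with adjusted p = 1.02e-06. Without GRP replicate 3 its value was -0.18 (adjusted p = 0.779).

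Of the neural crest and undifferentiated state 3 of 13 tested genes were called higher and none lower, with a median of 0.39. Nes, the intermediate filament nestin, was at 312, 306 and 383 CPM in mock and at 1410, 1990 and 2420 CPM in GRP libraries, with a log2 fold change of 2.54 ± 0.212 (SE, adjusted p = 6.23e-06). Gfra2, a co-receptor of the GDNF family, was at 1.03 ± 0.447 (adjusted p = 0.104), and with the replicate block at 1.05 with adjusted p = 5.54e-07, which would be called. The transcription factor gene Tfap2b rose by 1.45 ± 0.294 (adjusted p = 0.00298). Axl, a receptor tyrosine kinase, was at the fold threshold (1.01 ± 0.304, adjusted p = 0.0261) and lost the call when mock replicate 1 or 3 or GRP replicate 2 was left out, with log2 fold changes of 0.99, 0.81 and 0.66, and with scaling by the library total, at 0.89. Zeb2 and Ngfr passed the p threshold below the fold threshold (0.61 and 0.75).

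The lists of cell cycle genes and of FOXO and quiescence moved by small amounts. Cdkn1a, Gadd45b, Btg2 and Plk2, linked to growth arrest or stress, are in neither list and rose, as given under other observations. None of 22 cell cycle genes was called, their median log2 fold change was -0.36, and 10 passed the p threshold downward and 1 upward. Cdc6, which licenses replication origins, was at 20.4, 20.7 and 22.1 CPM in mock and at 12.3, 11.4 and 14.8 CPM in GRP libraries (-0.71 ± 0.115, adjusted p = 0.000746), and Mcm7 and Mcm3 of the replicative helicase were at -0.52 ± 0.12 and -0.51 ± 0.115 (adjusted p = 0.00699 and 0.00558). Ccnd1, cyclin D1, was at 2120 CPM in mock and 2270 CPM in GRP libraries (adjusted p = 0.594). Of 15 genes linked to FOXO factors or quiescence, among them Foxo1 and Foxo3 themselves, 1 was called higher and 1 lower. Their median was -0.33, and 8 passed the p threshold downward. Klhl24 was the gene called lower (-1.01 ± 0.132, adjusted p = 0.000164), while Sesn3, at 259, 295 and 277 CPM in mock and 159, 160 and 129 CPM in GRP libraries (-0.89 ± 0.088, adjusted p = 2.01e-05), and Pik3ip1 (-0.73 ± 0.073, adjusted p = 2.1e-05) did not reach the fold threshold. Klhl24 lost its call without mock replicate 2 (-0.87) or GRP replicate 3 (-0.92), and over the alternatives 0 to 2 genes of the list were called lower. Bcl6, the gene called higher, encodes a repressor (1.19 ± 0.163, adjusted p = 0.000226).

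In the BMP, ID and Notch list none of 11 tested genes was called, with a median log2 fold change of 0.35. Id2 was at -0.85 ± 0.117 (adjusted p = 0.000226) while Tgif1 was at 0.68 ± 0.091 (adjusted p = 0.000187). None of 11 sterol synthesis genes was called either, with a median of 0.22.

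The genes called lower were fewer and their changes were smaller. Their median level was 2.87 CPM in mock, against 3.83 CPM for genes called higher and 27.1 CPM for all genes tested. Protein-coding genes made up 68.1% of those called lower, 89.2% of those called higher and 86.6% of all tested. Kcnj13, a potassium channel of pigmented epithelia, had the largest decrease among the named genes, from 44.1, 37.5 and 69.7 CPM in mock to 13.1, 10.8 and 16.2 CPM in GRP libraries (-1.90 ± 0.303, adjusted p = 0.000636). Annotated exons on the opposite strand cover 49.1% of its exons.

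Plekha7, an adaptor of adherens junctions, was at 40.9, 37 and 35.8 CPM in mock and at 13.7, 12.3 and 9.61 CPM in GRP libraries (-1.68 ± 0.139, adjusted p = 5.6e-06). Map2k6, a kinase that activates p38, was at 8.92, 7.82 and 8.01 CPM in mock and at 3.06, 2.93 and 2.67 CPM in GRP libraries (-1.52 ± 0.168, adjusted p = 4.58e-05). The zinc finger factor gene Mecom fell by 1.32 ± 0.143 and Rgma, a repulsive guidance molecule and BMP co-receptor, by 1.34 ± 0.13 (adjusted p = 3.92e-05 and 1.61e-05). The other 5 of the 10 largest decreases were Hhatl, Fam222a, the potassium channel gene Kcna2, Smtnl2 and the lens filament gene Bfsp2, with log2 fold changes of -1.64, -1.41, -1.36, -1.31 and -1.31. All 10 had GRP libraries below all mock libraries, as the rule for naming them required.

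Cdh1, which encodes E-cadherin, and Esr1, which encodes the oestrogen receptor alpha, are genes the study is about, and neither was called. Cdh1 was at 2.56, 2.68 and 1.25 CPM in mock and at 1.59, 1.43 and 0.708 CPM in GRP libraries (-0.86 ± 0.443, adjusted p = 0.173). The groups overlap because replicate 3 was lowest in both, and with the replicate block the value was -0.80 ± 0.186 with adjusted p = 0.00126, still under the fold threshold. Esr1 was at 3.42, 2.68 and 2.55 CPM in mock and at 2.82, 2.18 and 1.87 CPM in GRP libraries (-0.35 ± 0.244, adjusted p = 0.314).

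The question of whether the response needs the introduced receptor is addressed by the same parental line with the control plasmid. In 1014-Ctrl, GRP against mock gave 0 called genes with edgeR of 14204 tested, in the fit without the replicate block. There 1482 genes were under an unadjusted p of 0.05, or 171 of 14404 when the library that goes against its label was left out. The 171 are fewer than this threshold would pass by chance, so the lack of calls is not read as the lack of any effect. The GRP effect was higher in 1014-Grpr than in 1014-Ctrl for 428 genes (3.01% of those tested) and lower for 125 (0.88%), by a test of the difference itself. Higher and lower refer to the signed log2 fold change, so a gene that fell further in 1014-Grpr counts as lower. Without that library the counts were 336 and 94. With the replicate block 231 genes were lower instead of 125, and 188 with the block and without that library. The lower count also moved to 82 without 1014-Grpr mock replicate 2 and to 66 without 1014-Grpr GRP replicate 3, and leaving out 1014-Ctrl mock replicate 1 or 3 raised the counts to 645 and 240 or to 652 and 233.

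Lif, at 1.76 CPM in mock and 1.98 CPM in GRP libraries of 1014-Ctrl, differed in its GRP effect by 5.27 ± 0.41 (log2, SE, adjusted p = 8.72e-08), and by 5.55 ± 0.433 without the odd library. Tnc, Ccn1, Ccn2, Fosl1 and Plaur differed by 5.08, 5.48, 4.72, 4.26 and 4.26 with it and by 5.54, 5.66, 4.39, 4.60 and 4.11 without it, each past the threshold. Among the 10 largest decreases, Plekha7 differed by -1.51 with it and -1.56 without it (adjusted p = 7.74e-05 and 5.5e-05) and Kcnj13 by -2.02 and -1.65 (adjusted p = 0.0982 and 0.167).

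**Figure D4:**
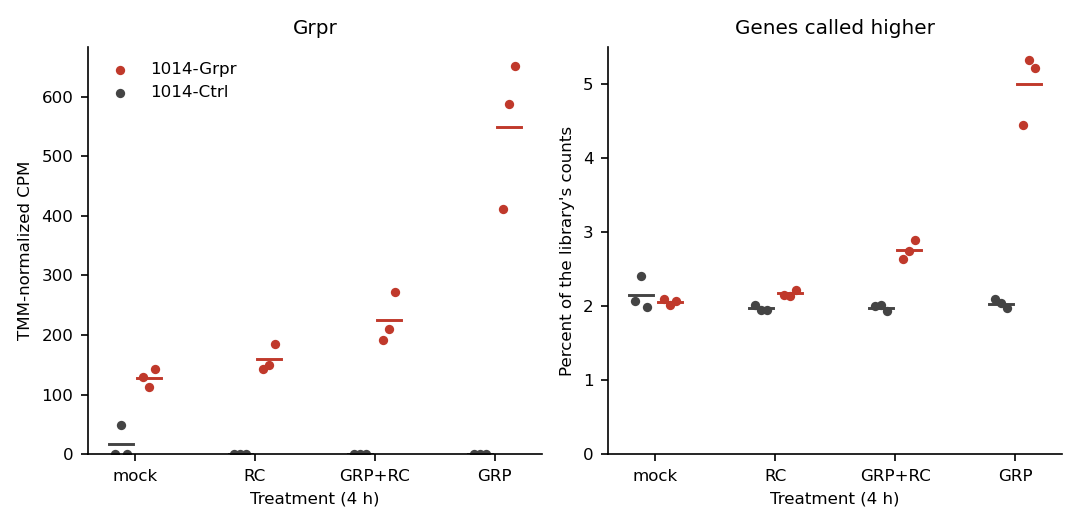
Grpr in CPM (left) and the percent of a library's counts in the 434 genes called higher (right) for each of the 3 libraries (points) of 4 treatments in 1014-Grpr (red) and 1014-Ctrl (dark), with group means as short lines and CPM normalized over the 24 libraries of both lines. In 1014-Grpr the GRP libraries reach 4.45 to 5.33% and the GRP+RC libraries 2.63 to 2.89%, and the raised 1014-Ctrl mock point on the left is the library that goes against its label. The 434 genes were chosen for being higher in these GRP libraries than in the mock libraries of 1014-Grpr.

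The antagonist arms of the same line share the GRP and mock libraries used above, so the counts of each comparison are its own and nothing is read from one to another. RC alone against mock gave 0 called genes with edgeR of 13730 tested, in the fit without the replicate block. Under an unadjusted p of 0.05 lay 161 genes, fewer than this threshold would pass by chance. The lack of calls is therefore not read as the lack of an effect of RC. GRP with RC against GRP alone gave 218 genes lower (1.59% of those tested) and 20 higher (0.146%), and 44 higher with the replicate block, while the 20 fell to 9 without GRP replicate 3. The genes that follow were chosen for their GRP values, so their levels are given with no test. Lif was at a mean of 2.14 CPM in mock, 93.2 in GRP, 7.92 in GRP with RC and 3.60 CPM in RC libraries. Rgs16 was at 0.199, 60.1, 3.13 and 0.616 CPM in the same order. Nes was at 334, 1940, 643 and 369 CPM, and Plekha7 at 37.9, 11.9, 24.1 and 35.3 CPM. The genes called higher held 2.63 to 2.89% of the counts with GRP and RC, between the 2.01 to 2.09% of mock and the 4.45 to 5.33% of GRP libraries. In each of these 4 genes the mean level with both agents lay between those of mock and GRP.

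1057, which has its own Grpr, received the same dose for the same time. The lines differ in genotype and in the origin of the receptor, which cannot be told apart here. The signed GRP effect was higher in 1014-Grpr for 211 genes (1.36% of 15538 tested) and lower for 228 (1.47%). Lif, at 44.3 CPM in mock and 90.1 CPM in GRP libraries of 1057, rose there by 1.02, so its effect in 1014-Grpr was larger by 4.42 ± 0.28 (log2, SE, adjusted p = 2.41e-10). Serpinb2 rose by 3.06 in 1057 and was larger in 1014-Grpr by 4.28 ± 0.841 (adjusted p = 0.000842). Rgs16 went from 0.414 to 1.28 CPM in 1057 and was larger in 1014-Grpr by 6.47 ± 1.142 (adjusted p = 0.000277). Egr2 went from 0.789 to 1.17 CPM in 1057 and was larger in 1014-Grpr by 2.97 ± 0.606 (adjusted p = 0.00119).

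Pthlh and Grpr moved in opposite directions in the 2 lines, and Nr4a3 rose by more in 1057. Pthlh, the parathyroid hormone-like hormone, was at 105 CPM in mock and 58.3 CPM in GRP libraries of 1057, against 1.39 and 12.5 CPM in 1014-Grpr in the same fit, a difference of effects of 3.97 ± 0.374 (adjusted p = 7.97e-08). Grpr was at 264 and 198 CPM in 1057 (log2 fold change -0.41, adjusted p = 0.0165), and its effect differed by 2.52 ± 0.189 (adjusted p = 3.28e-09). Nr4a3 rose by 6.22 in 1057, and its effect in 1014-Grpr was smaller by -1.69 (log2, adjusted p = 0.00873). For Tnc, Ccn1, Il11 and Plaur the differences of 0.78, 1.30, 1.28 and 0.18 did not pass the threshold (adjusted p = 0.511, 0.212, 0.247 and 0.735), which does not show that the effects are alike.

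**Figure D5:**
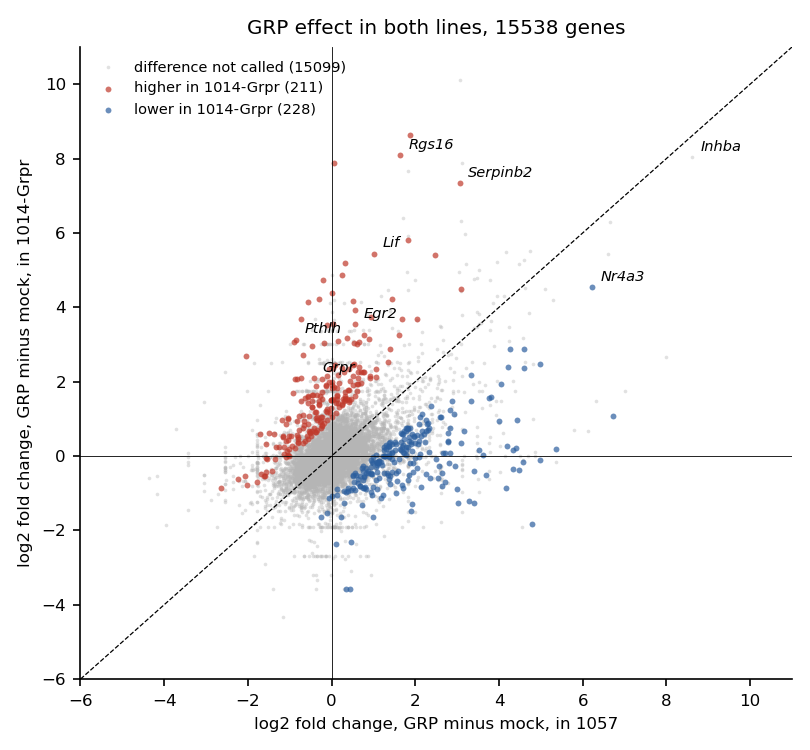
Log2 fold change of GRP against mock in 1014-Grpr (vertical) against that in 1057 (horizontal) for 15538 genes, with the dashed line of equal effect. The genes passed the filter over the libraries of both lines together, so a gene may have few counts in a single line. Genes whose signed effect was called higher in 1014-Grpr are in red (211) and those called lower in blue (228). Rgs16, Serpinb2 and Lif lie above the line and Nr4a3 below it.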

How the data were processed

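RNA of starved and treated cells was sequenced in paired ends from polyA-selected, stranded libraries. With FastQC 0.11.5 and a STAR alignment to mm10 (GENCODE M13, GRCm38.p5), the authors made and deposited raw counts per gene for every library. The authors also deposited TPM, used here only to rank levels between genes. STAR also made the count matrices, and its strand setting is not given in the sources used here. Positions come from GENCODE M21 (GRCm38), which held 99.6% of the 50600 gene identifiers. The depth of the 6 libraries, 21501950 to 46862053 counts, puts the floor of 3 counts at or below 0.14 CPM in each.

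Counts of the 12 libraries of 1014-Grpr, in 4 groups of 3, were filtered with filterByExpr, normalized by TMM and tested with edgeR 4.0.16 (R 4.3.3, limma 3.58.1), by the quasi-likelihood test with Benjamini-Hochberg adjustment. Every adjusted p in the text is from edgeR without a replicate block unless named otherwise. Standard errors were obtained from each log2 fold change and its F statistic (size over root F). Differences between lines were interaction contrasts over 24 libraries of both lines. Genes named are the 15 largest increases and 10 largest decreases with at least 5 CPM in the higher group, GRP libraries all on one side of the mock libraries and no predicted-gene symbol. To these were added up to 4 members of each gene list with the largest changes, the genes the study is about, the 6 largest differences per pair of lines and the 5 called genes of highest TPM. Some genes that meet this rule are not reported here. Further members of the lists were named after their values were seen. The comparison, the lists and the rule were chosen with earlier results of these data known. The fitting code was tested on simulated data.

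Replicate numbers in the labels were checked for pairing through the correlation of deviations from group means. Over 18 pairs of libraries with the same number in 1014-Grpr it was 0.386 to 0.537, and 0.434 to 0.513 between mock and GRP, whereas pairs of different number from different groups gave -0.392 to -0.036. The numbers were therefore taken to pair the libraries, and the fit with the number as a block was run as an alternative. The other alternatives were DESeq2 1.42.0, another normalization, no filter, the 6 libraries alone, each library left out and, chosen after seeing the data, scaling by the library total and the block without one 1014-Ctrl library. No libraries of one group agreed within sampling noise.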

Additional observations from a re-analysis of the deposited data

Results flagged for a closer look

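The GRP effect differed between 1014-Grpr and 1014-Ctrl by the test of the difference itself. The signed effect was higher in 1014-Grpr for 428 genes and lower for 125. By log2 differences, the genes named by the rule included Grpr at 12.04 (adjusted p = 0.00386), Inhba at 9.87, Pthlh at 9.87, Rgs16 at 7.86 and Serpinb2 at 7.39. These values use 1014-Ctrl mock replicate 2, the library that goes against its label. Without it the difference for Grpr was 0.26 (adjusted p = 0.868), with a mean of 0 CPM in 1014-Ctrl mock instead of 16.6 CPM, and that for Pthlh was 3.04 (adjusted p = 0.00235). Inhba was then at 9.63 and Serpinb2 at 7.70, both past the threshold, and Rgs16 at 6.03 (adjusted p = 0.548), where its level in 1014-Ctrl was under 0.1 CPM in both groups.

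The GRP effect also differed between 1014-Grpr and 1057, with the signed effect higher in 1014-Grpr for 211 genes and lower for 228. The differences on the log2 scale were 6.47 for Rgs16, 4.42 for Lif, 4.28 for Serpinb2, 3.97 for Pthlh and 2.97 for Egr2, each past the threshold.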

How the results depend on the processing

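For GRP against mock in 1014-Grpr, the count of genes called lower was 199 with scaling by the library total, and by adjusted p alone 2244 were higher and 1742 lower. Leaving out 1 library at a time gave 388 to 481 higher and 73 to 172 lower, with 73 without GRP replicate 3. The difference from 1014-Ctrl gave 336 to 652 higher and 66 to 240 lower, and that from 1057 gave 199 to 235 higher and 195 to 264 lower. GRP with RC against GRP gave 9 to 21 higher, with 9 without GRP replicate 3, and 171 to 256 lower. With the replicate block the lower count against 1014-Ctrl was 231, and 188 without 1014-Ctrl mock replicate 2, and GRP with RC against GRP gave 44 higher. Among the named genes the block moved Cdh1, Kit, Gpr143, Gfra2, Smad6 and Sqle past the p threshold and no other, and the fold criterion was then met by Gfra2 and no longer by Syt4. Over 90 named genes and 12 alternatives, 1041 of 1080 values stayed on the same side of the p threshold and 0 changed sign past it. Of 65 called genes, 61 were called under every alternative, the exceptions being Nt5e, Axl, Syt4 and Klhl24. Genes with a few counts in mock are limited by depth, and 3 replicates limit the rest. The causes of these shifts were not tested.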

Other observations

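The following called genes belong to no list of the report and were chosen after their values were seen. Cdkn1a, the cell cycle inhibitor p21, was at 114, 79.8 and 85.6 CPM in mock and at 412, 465 and 473 CPM in GRP libraries of 1014-Grpr (log2 fold change 2.27 ± 0.143, adjusted p = 1.02e-06). Gadd45b, Btg2 and Plk2, which are linked to growth arrest or stress, rose by 2.07, 2.26 and 2.33 on the same scale. Also called higher were Chac1, a glutathione-degrading enzyme (2.73 ± 0.49, adjusted p = 0.0014), Cth of the transsulphuration route (2.09 ± 0.37), the cystine transporter gene Slc7a11 (1.54 ± 0.335) and Mthfd2 of mitochondrial folate metabolism (1.18 ± 0.192). Slc7a11 was at 159, 71.6 and 97.1 CPM in mock and at 379, 314 and 262 CPM in GRP libraries. Hmga2, a chromatin architectural protein, was at 163, 131 and 203 CPM in mock and at 559, 646 and 695 CPM in GRP libraries (1.94 ± 0.187, adjusted p = 1.6e-05). Hmga1 rose by 2.17, but shares sequence with a near copy, so its reads may be split.

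Xirp1, which encodes an actin-binding repeat protein, had 0 counts in every mock library and 450 in the GRP libraries, at least 104-fold higher by the lower end of the exact 95% counting interval of the pooled ratio (adjusted p = 0.00017). Ptchd1, Lyve1 and Kcnk3 were at 0 in mock likewise, with lower ends of 39.3, 22.1 and 19.8. Flnc, Zyx and Vasp, which encode actin-associated proteins, rose by 2.24, 1.45 and 1.35. Ahr, the aryl hydrocarbon receptor, was at 14.6, 13.8 and 12.7 CPM in mock and at 88.9, 102 and 96.1 CPM in GRP libraries (2.80 ± 0.123, adjusted p = 2.12e-07). Nfil3 and Arntl rose by 2.04 and 1.46, while Dbp and Hlf fell by 1.01 and 1.18. Annotated exons on the opposite strand cover 18% of the exons of Dbp. Pik3r3, a regulatory subunit of PI3 kinase, was at 227, 252 and 192 CPM in mock and at 97.3, 100 and 84.9 CPM in GRP libraries (-1.25 ± 0.123, adjusted p = 1.82e-05). Annotated exons of other genes on the same strand cover 24.3% of its exons. Prex1, a Rac exchange factor, was at 110, 106 and 112 CPM in mock and at 56.1, 51.4 and 44.1 CPM in GRP libraries (-1.11 ± 0.079, adjusted p = 2.02e-06).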
